A study of Mus musculus with 27 samples.

Results

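The genes described here are 9 core components of the Sonic hedgehog pathway, chosen by name from a progenitor count table that lists 39017 genes: the transcription factors Gli1, Gli2 and Gli3, the receptor Ptch1, the transducer Smo, the ligand-binding decoy Hhip, and the co-receptors Boc, Cdon and Gas1. All 9 were found in each RNA-seq table of the study, which examined the transcription factor Nkx2.2 and a version of it mutated in a region called the SD domain. Motor neuron progenitors (pMN) were made from mouse embryonic stem cells and collected on day 4 of differentiation. The 3 pMN libraries came from the iNkx2.2 line without doxycycline. The 3 iNkx2.2 libraries came from the same line after about 16 hours in 1 µg/ml doxycycline, which switched on FLAG-tagged wildtype Nkx2.2, and the 2 iSDmut libraries came from a separate line in which doxycycline switched on the FLAG-tagged SD mutant. Whole pancreata at E15.5, a stage of embryonic development, comprised 3 control (wildtype) and 4 Nkx2.2SDmut libraries. Islets at 8 weeks comprised 2 control and 3 libraries with the SD mutation limited to beta cells (betaSDmut). Islets at 4 weeks comprised 2 control and 2 libraries labelled betaKO, a beta-cell deletion of Nkx2.2. The Cre driver of the beta-cell lines, the full genotype of the controls and any pooling of embryos or mice are not given in the sources used here. Binding of Nkx2.2 was mapped by ChIP-seq in 2 libraries of MIN6 cells, a mouse beta-cell line.

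Hedgehog ligands bind Ptch1, which otherwise holds Smo inactive, and the co-receptors Boc, Cdon and Gas1 assist that binding. Active Smo works through the primary cilium to turn Gli2 and Gli3 from repressors into activators, and Gli1, Ptch1 and Hhip are themselves transcribed in response, so that their levels are widely read as pathway output. In the ventral neural tube Sonic hedgehog from the notochord and floor plate sets the progenitor domains: Olig2 marks the motor neuron progenitors, and Nkx2.2 marks the next domain toward the floor plate. In the early pancreas, low hedgehog activity in the endoderm is needed for the organ to form.

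Total counts were between 17757991 and 46840701 per progenitor library, between 38447596 and 41840638 per E15.5 library and between 12398041 and 32385406 per islet library. Nkx2-2 itself, the gene that was induced, stood at 11.6, 5.40 and 10.7 CPM (counts scaled to a common library size, with TMM scaling) in the pMN libraries, at 378, 343 and 343 CPM in the iNkx2.2 libraries and at 248 and 245 CPM in the iSDmut libraries. Nkx2-2 was thus read at unequal levels in the iNkx2.2 and iSDmut libraries, by a count that does not separate the transgene from the cells' own gene. This difference in level cannot be told apart from that of the mutation. Nor can the cell line, since the iSDmut libraries came from another line than the pMN and iNkx2.2 libraries. Doxycycline was given only to the induced groups, and its own effect cannot be told apart from that of Nkx2.2. In the islet libraries labelled betaKO, Nkx2-2 stood at 65.5 and 94.1 CPM against 77.2 and 104 CPM in their controls, so that the label is not reflected in this gene's count. Over the marker lists, the 6 progenitor markers summed to between 1156 and 1250 CPM in pMN, and the 6 beta-cell markers summed to between 167100 and 237200 CPM across the islet libraries. No label states that replicates were separate cultures or animals, so the p-values below measure only the spread between these samples, which may be technical.

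Nkx2.2 binding sites near these genes are shown first because they give the sequence that the factor was found on. The deposited final set held 6473 sites in MIN6 cells (mouse build mm10, here GRCm38), and 4 of the 9 genes, Gli3, Ptch1, Cdon and Gas1, had a site within the gene or 50 kb on either side. Of 21938 protein-coding genes, 31.97% had one in the same window. Gli1, Gli2, Smo, Hhip and Boc had none. Windows of 151 bases centred on 4 of the 9 sites within 100 kb of these genes are printed 5′ to 3′ on the plus strand, with capitals marking a match to the NK2 core TNAAGTG or to the GLI motif GACCACCCA on either strand.
Ptch1 intronic site, chr13:63566330-63566480: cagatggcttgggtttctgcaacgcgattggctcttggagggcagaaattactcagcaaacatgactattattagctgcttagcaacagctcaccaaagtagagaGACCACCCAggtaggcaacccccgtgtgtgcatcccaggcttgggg
Ptch1 upstream site, chr13:63627336-63627486: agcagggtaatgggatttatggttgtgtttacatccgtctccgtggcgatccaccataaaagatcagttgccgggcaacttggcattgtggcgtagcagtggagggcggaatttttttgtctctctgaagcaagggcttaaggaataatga
Gas1 site, chr13:60173704-60173854: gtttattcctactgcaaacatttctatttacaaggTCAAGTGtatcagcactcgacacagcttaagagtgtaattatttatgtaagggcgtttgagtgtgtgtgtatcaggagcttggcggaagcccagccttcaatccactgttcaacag
Gli3 intronic site, chr13:15602788-15602938: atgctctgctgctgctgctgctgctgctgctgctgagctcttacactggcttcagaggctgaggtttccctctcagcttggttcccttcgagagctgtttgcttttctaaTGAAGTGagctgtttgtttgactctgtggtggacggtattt

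The intronic Ptch1 site held the GLI motif on the plus strand, starting 30 bases after its centre, and no NK2 core. That GLI motif occurred in 6 of all 6473 site windows, or 0.09%. The site lies in an intron of the longest annotated Ptch1 transcripts and 670 bases upstream of the transcript start that RefSeq uses. Its mean ChIP signal was 6.85 log2 CPM, no. 3135 in strength among the final sites, and the median site stood at 6.82. A second Ptch1 site lay 53.8 kb upstream of the gene, had a signal of 7.60 log2 CPM and held neither motif. In the authors' deposited table, that upstream site is the one joined to Ptch1.

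The Gas1 and Gli3 windows each held an NK2 core, a match present in 759 windows, or 11.7%. The Gas1 site lay 0.6 kb beyond the end of this gene and had a mean signal of 6.92 log2 CPM. Gli3 had 2 intronic sites, at 6.99 and 6.48 log2 CPM, each with an NK2 core. None of the 9 genes had a site from the strongest 10% of the set in the 50 kb window, against 4.9% of protein-coding genes. Farther out, a strong site at 9.45 log2 CPM, no. 74 of the set, lay 80.3 kb from Gli1 within an intron of R3hdm2, and a site at 7.17 log2 CPM lay 58.5 kb from Boc. RefSeq promoter windows (GRCm38.p6, the 250 bases before the start) were matched for 7 of the 9 genes, all but Gli1 and Boc. None of the 7 held the GLI motif, which 0.23% of 32851 such promoters did, and Cdon alone held an NK2 core, which 10.06% did. A match to these letters is a description and not evidence of binding in progenitors, where no binding was measured.

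In uninduced progenitors the receptor and the transducer were the most abundant of the 9 per unit length. On the authors' FPKM scale (fragments scaled for gene length and library size), Ptch1 stood at 90.8 ± 10.6 (SD, n = 3), Smo at 44.4 ± 1.23, Gli1 at 33.0 ± 4.18 and Gas1 at 22.7 ± 6.19, with no overlap between neighbours in that order. Hhip, Cdon and Gli3 followed at 7.96 ± 0.33, 7.15 ± 0.817 and 6.34 ± 1.32 FPKM, each overlapping the next. Gli2 at 3.86 ± 0.419 and Boc at 2.58 ± 0.289 FPKM were the lowest. The order depends on the gene length used: in CPM per kilobase of GENCODE exon, Smo at 41.5 ± 2.49, Ptch1 at 39.8 ± 3.24 and Gli1 at 35.8 ± 4.85 (SD, n = 3) each overlapped the next, and Hhip was the lowest at 3.62 ± 0.386. After induction of wildtype Nkx2.2, Gli1 stood at 4.44 ± 0.802 FPKM, Gli2 was last at 0.397 ± 0.0803 FPKM, and Ptch1 and Smo overlapped at 43.9 ± 6.76 and 43.1 ± 3.96 FPKM. In the iSDmut libraries Ptch1 and Smo led again, at 45.4 ± 6.06 and 41.1 ± 1.13 FPKM (SD, n = 2), Gli1 followed at 8.01 ± 2.08 FPKM, and Gli2 was again the lowest at 0.976 ± 0.577 FPKM.

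The first comparison asked what wildtype Nkx2.2 changed in progenitors. In the fit without a replicate block, all 3 Gli factors, Ptch1, Hhip and Gas1 fell, while Smo, Boc and Cdon did not pass the test. Thus 6 of the 9 genes were called, all lower, at an edgeR quasi-likelihood adjusted p under 0.05, against 9.49% of the 15653 genes tested called in either direction and 4.78% called lower. These shares come from a fit that leaves out the pairing of same-numbered pMN and iNkx2.2 libraries. A fit blocked by replicate number called 4629 genes in place of 1486, with the same 6 genes lower and Cdon higher. The median log2 change of the 9 genes was -1.47, and that of all genes was -0.01. With total library size in place of TMM the median of all genes shifted by 0.10, and the split of all calls went from 738 higher and 748 lower to 917 higher and 412 lower, while the same 6 genes were called lower. In bulk libraries such as these, fewer cells of a type and less RNA per cell cannot be told apart.

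Gli2, the main activator of the response (chr1:118834132-119053619, minus strand), had the largest fall of the 9. It stood at 29.8, 35.7 and 38.4 CPM in the pMN libraries and at 2.57, 1.66 and 2.91 CPM in the iNkx2.2 libraries. The groups were far apart, and the fall was 14.4-fold (log2 -3.85, SE 0.240, edgeR adjusted p = 7.5e-05). Gli1, an activator and itself a direct target (chr10:127329882-127341974, minus strand), stood at 195, 190.5 and 151 CPM in pMN and at 26.3, 23.3 and 17.0 CPM in iNkx2.2. It fell 8.03-fold (log2 -3.00, SE 0.209, edgeR adjusted p = 0.000102), with every induced library far under every uninduced one.

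Gli3, which acts mostly as a repressor in the absence of ligand (chr13:15463235-15730026, plus strand), stood at 51.2, 69.4 and 73.5 CPM in pMN and at 15.2, 19.5 and 24.3 CPM in iNkx2.2. Its fall was smaller than those of Gli1 and Gli2 in point estimate, at 3.30-fold (log2 -1.72, SE 0.214, edgeR adjusted p = 0.00187). The ranges of the groups were clearly separate for this gene too.

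Ptch1 (chr13:63508328-63573598, minus strand) stood at 573, 515 and 606 CPM in pMN and at 294, 221 and 245 CPM in iNkx2.2. The groups did not overlap, and Ptch1 fell 2.23-fold (log2 -1.15, SE 0.134, edgeR adjusted p = 0.00135). Hhip, the decoy that sequesters ligand at the cell surface (chr8:79965851-80058006, minus strand), stood at 31.1, 36.9 and 30.6 CPM in pMN and at 13.8, 9.04 and 8.19 CPM in iNkx2.2. It fell 3.15-fold (log2 -1.66, SE 0.210, edgeR adjusted p = 0.00207), again without overlap. Smo (chr6:29735503-29761365, plus strand) stood at 226, 249.3 and 225 CPM in pMN and at 194, 208 and 228 CPM in iNkx2.2, overlapping ranges with a log2 change of -0.15 (95% interval -0.33 to 0.03, edgeR adjusted p = 0.342).

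The 3 co-receptors did not move alike. Gas1, a membrane-anchored co-receptor (chr13:60174405-60177365, minus strand), stood at 44.2, 75.8 and 68.6 CPM in pMN and at 18.8, 20.2 and 29.0 CPM in iNkx2.2, and fell 2.78-fold (log2 -1.47, SE 0.260, edgeR adjusted p = 0.0099). Without iNkx2.2 replicate 1 its adjusted p was 0.0558, the 1 of 13 alternative analyses in which Gas1 was not called. Boc (chr16:44485049-44558897, minus strand) stood at 16.8, 17.8 and 19.4 CPM and at 16.0, 14.0 and 17.8 CPM, with a log2 change of -0.17 (95% interval -0.44 to 0.10). Cdon (chr9:35421128-35507652, plus strand) stood at 47.3, 67.4 and 60.7 CPM in pMN and at 74.7, 84.0 and 80.9 CPM in iNkx2.2, higher in all 3 induced libraries, with a log2 change of 0.45 (SE 0.172, edgeR adjusted p = 0.137). With the replicate number as a block, the same gene's change was 0.47 and its edgeR adjusted p 0.00525, which passed.

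**Figure D1:**
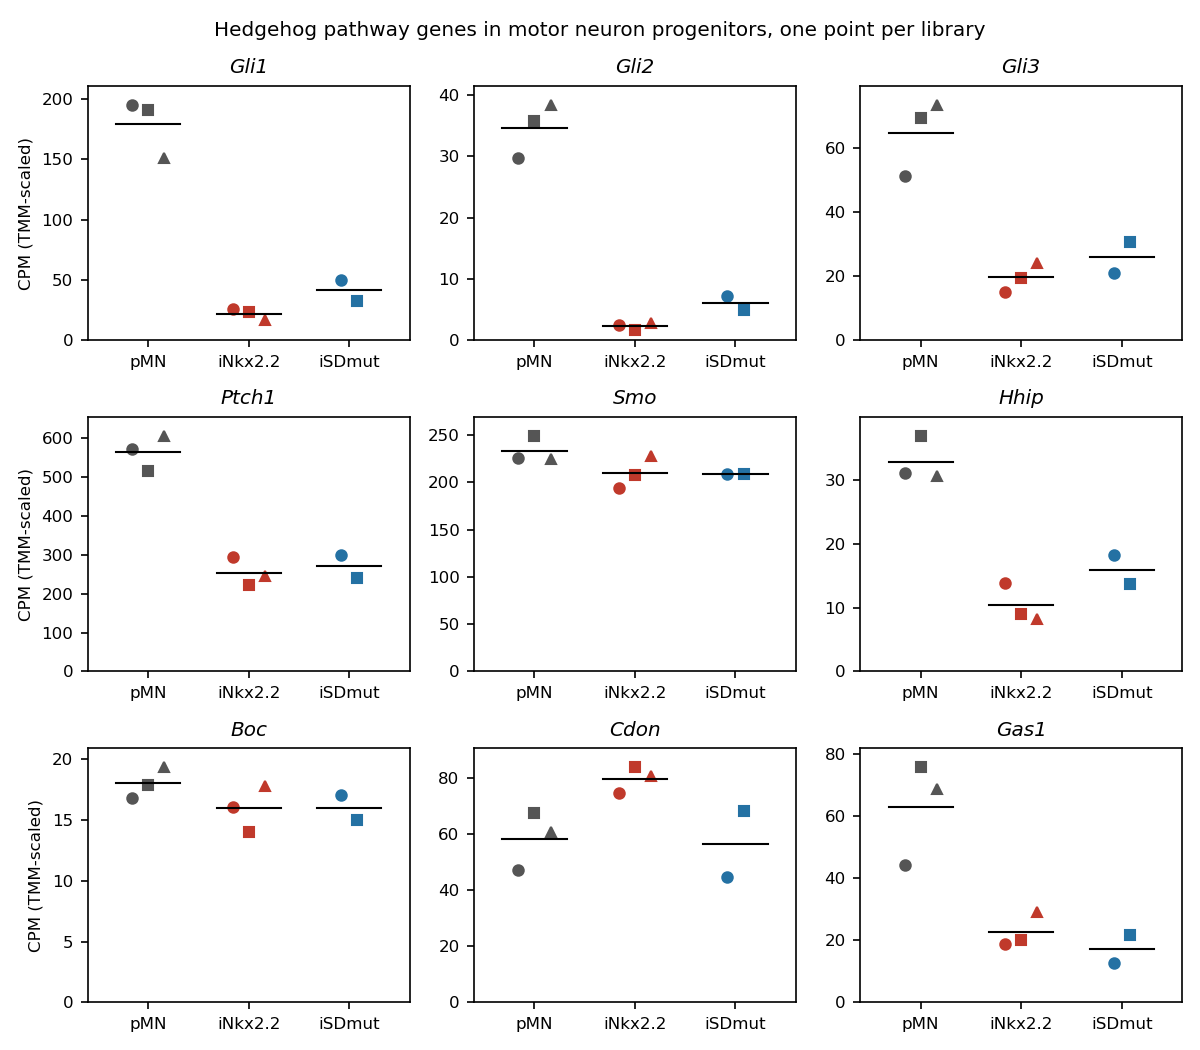
TMM-scaled CPM of each of the 9 genes (y axis, linear, from 0) in the pMN, iNkx2.2 and iSDmut libraries (x axis). Each point is a library, its shape gives the replicate number and the line is the group mean. Gli1, Gli2, Gli3, Ptch1, Hhip and Gas1 are lower in all 5 induced libraries than in any pMN library, and the differences of Smo, Boc and Cdon are smaller.

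Sequencing lane, read from the library titles, differed within each group. With the 2 pMN and 2 iNkx2.2 libraries of lane 2 alone, the log2 changes were -2.93 for Gli1, -3.88 for Gli2, -1.78 for Gli3, -1.06 for Ptch1, -1.54 for Hhip and -1.60 for Gas1, with edgeR adjusted p of at most 0.0265. The 6 genes passed in this subset of the same libraries, in a fit that called 994 of all genes, 435 of them lower. In the authors' deposited table, the log2 coefficients for this comparison were -2.96 for Gli1, -3.80 for Gli2, -1.73 for Gli3, -1.13 for Ptch1, -1.54 for Hhip and -1.44 for Gas1, all called lower.

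The second comparison set the SD mutant against uninduced cells and found the same 6 genes lower, with Smo, Boc and Cdon not called. In this comparison 3.54% of the 15653 genes were called, 1.64% lower. The median log2 change of the 9 genes was -1.06, beside -0.01 for all genes. It shares its pMN libraries with the first comparison. The groups compared also differ in cell line, whose part cannot be told apart from that of the induced mutant.

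Gli1 stood at 50.1 and 32.8 CPM in the iSDmut libraries and fell 4.32-fold from pMN (log2 -2.11, SE 0.235, edgeR adjusted p = 0.00227). Gli2 stood at 7.28 and 4.91 CPM and fell 5.71-fold (log2 -2.51, SE 0.263, edgeR adjusted p = 0.0018). Both stayed far below every pMN library, and both were called in all 12 alternative analyses. Gas1 stood at 12.8 and 21.8 CPM and fell by 1.86 on the log2 scale (SE 0.307, edgeR adjusted p = 0.0144). Ptch1 stood at 299 and 241 CPM and fell by 1.06 (SE 0.153, edgeR adjusted p = 0.00788). These 2 genes were called in 10 and 11 of the 12 alternatives.

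Gli3 and Hhip were closer to the threshold. Gli3 stood at 21.2 and 30.8 CPM, with a log2 change of -1.31 (SE 0.244, edgeR adjusted p = 0.0221), and was called in 8 of 12 alternatives. Hhip stood at 18.3 and 13.6 CPM, with a log2 change of -1.04 (SE 0.238, edgeR adjusted p = 0.0459), and was called in 5 of 12. Smo at 209 and 209 CPM, Boc at 17.0 and 15 CPM and Cdon at 44.6 and 68.2 CPM had log2 changes of -0.16, -0.17 and -0.05. Both Smo values were below all 3 pMN values, and its 95% interval ran from -0.36 to 0.04.

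Only 1 iSDmut library shared a lane with pMN libraries, lane 2, and the other was the sole library of lane 3. With lane 2 alone, a lone iSDmut library remained, and fewer of the 9 genes and fewer of all genes were called than in the main fit. Gli1 and Gli2 had log2 changes of -1.92 and -2.15 there. Gli3, Ptch1, Hhip and Gas1 kept a negative change, from -0.85 for Ptch1 to -2.21 for Gas1, and were not called. Without iSDmut replicate 1, which also left a lone mutant library, fewer of the 9 genes and fewer of all genes were again called. The authors' deposited table called 5 of these 6 genes lower and did not call Gli3, whose coefficient there was -0.98.

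The third comparison set the mutant directly against the wildtype factor, again across lines. In the edgeR fit of all progenitor libraries, with the count filter and without a replicate block, none of the 9 genes passed. In that fit 0.281% of all genes did (44 by edgeR, with 1962 at an unadjusted p under 0.05 and 473 called by DESeq2). Of the 9 genes, 4 had an unadjusted p under 0.05, Gli1, Gli2, Hhip and Cdon, and DESeq2 called Gli1 and Gli2. With the replicate number as a block, edgeR called 528 genes and 4 of the 9, Gli1, Gli2, Gli3 and Cdon. Relative to the pMN mean, Gli2 stood at 6.87% with the wildtype factor and 17.6% with the mutant, and Gli1 stood at 12.4% and 23.2%. For both genes the 2 mutant libraries were higher than all 3 wildtype libraries. The log2 difference of mutant minus wildtype was 1.33 for Gli2 (SE 0.256, 95% interval 0.83 to 1.84, edgeR adjusted p = 0.0804) and 0.89 for Gli1 (SE 0.219, 95% interval 0.46 to 1.32, edgeR adjusted p = 0.135).

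The differences of the other genes were smaller or went the other way. Hhip stood at 31.5% of the pMN mean with wildtype and 48.5% with mutant, a log2 difference of 0.61 (SE 0.231), and Gli3 at 30.4% and 40.2%, a difference of 0.41 (SE 0.235). Ptch1 stood at 44.9% and 47.8%, a log2 difference of 0.09 with a 95% interval from -0.20 to 0.38. Gas1 was at 36.0% and 27.5%, a difference of -0.38 (SE 0.294). Cdon stood at 137% with wildtype and 96.5% with mutant, a log2 difference of -0.50 (SE 0.194, edgeR adjusted p = 0.330), and both mutant values were below all 3 wildtype values. Smo and Boc differed by -0.01 and 0.00, with 95% intervals from -0.21 to 0.20 and from -0.30 to 0.31.

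The results for Gli1, Gli2, Gli3 and Cdon turned on the analysis. Without the count filter and without a block, Gli2 passed at a log2 difference of 1.31 (edgeR adjusted p = 0.0103). In the fit with the replicate block, the log2 difference was 1.43 for Gli2 (edgeR adjusted p = 0.0147), 0.75 for Gli1 (adjusted p = 0.0249), 0.54 for Gli3 (adjusted p = 0.0175) and -0.51 for Cdon (adjusted p = 0.0357). DESeq2 gave adjusted p = 0.00814 for Gli1 and 0.00016 for Gli2, and without iSDmut replicate 2 edgeR called both. With lane 2 alone, Gli1 passed at a log2 difference of 1.01 (edgeR adjusted p = 0.0307), and Gli2 stood at 1.73 (edgeR adjusted p = 0.0514). In the authors' deposited table no listed member of the 9 was called between wildtype and mutant, with coefficients of wildtype minus mutant of -1.62 for Gli2 and -0.93 for Gli1.

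**Figure D2:**
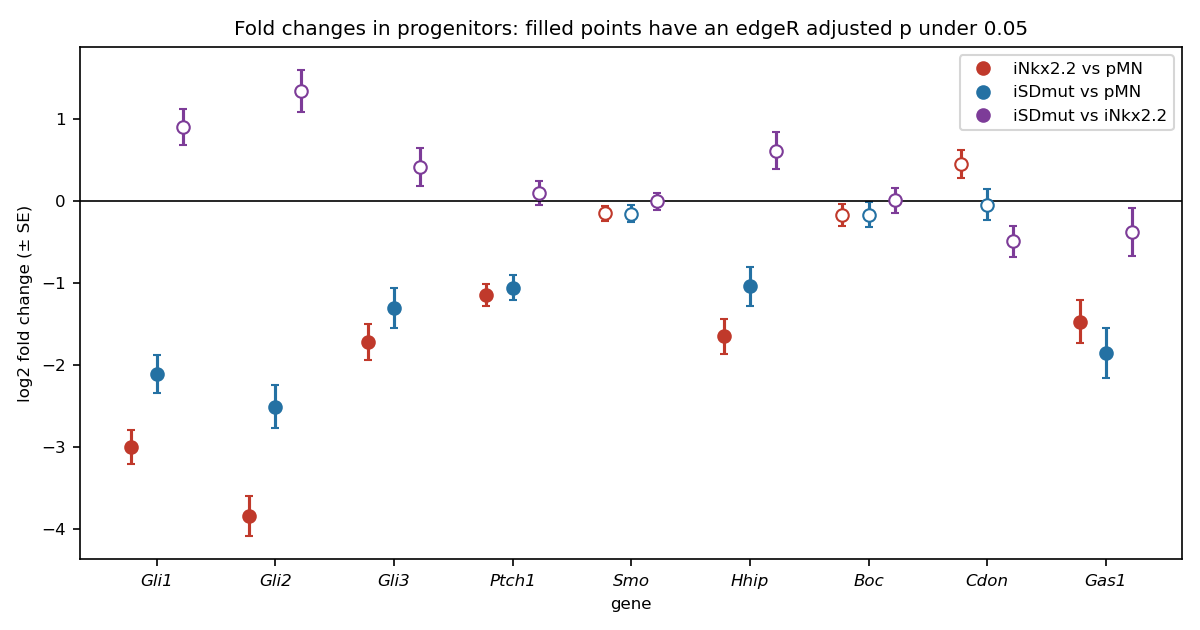
Log2 fold change with its standard error (y axis) for each gene (x axis) in 3 comparisons of progenitor libraries, where filled points have an edgeR adjusted p under 0.05. The 6 called genes lie below 0 in both comparisons with pMN, and in iSDmut against iNkx2.2, fitted without a replicate block, no point is filled, with Gli2 at 1.33 and Gli1 at 0.89.

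Markers of other cells differed between these groups. The 6 progenitor markers summed to between 692.5 and 812 CPM in iNkx2.2 and between 686 and 1004 CPM in iSDmut, below pMN in both. Of these 6, 3 were called lower with wildtype and 2 with the mutant, and 1 was called higher in mutant against wildtype. In these comparisons 9.49%, 3.54% and 0.281% of all genes were called in either direction. The 4 floor plate markers summed to between 331 and 419 CPM in pMN, 456 and 579 CPM in iNkx2.2 and 238 and 381 CPM in iSDmut. The 10 mesenchyme markers summed to between 45.4 and 59.1 CPM in pMN, 70.5 and 103 CPM in iNkx2.2 and 16.2 and 65.5 CPM in iSDmut. Of 8 mesenchyme markers tested, 2 were called higher with wildtype. Of 5 duct markers tested, 1 was called lower with the mutant, both against pMN and against wildtype. Of 5 motor neuron markers tested, 4 were called lower with wildtype and 1 with the mutant, beside 4.78% and 1.64% of all genes. The median log2 changes of these markers were -2.67 and -2.05, and none was called between mutant and wildtype. Their sum was between 46.1 and 108 CPM in pMN, 29.5 and 62.6 CPM in iNkx2.2 and 72.7 and 92.5 CPM in iSDmut. The 5 pluripotent cell markers summed to between 8.91 and 22.6 CPM in pMN, 7.002 and 23.1 CPM in iNkx2.2 and 0.952 and 5.28 CPM in iSDmut, and none of the 4 tested was called. The part of these differences in the levels of the 9 genes was not tested.

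A list of 54 other hedgehog genes, of which 52 were tested, placed these changes in the pathway. With wildtype Nkx2.2, 7 of the 52 were called, 1 higher and 6 lower, beside 9.49% of all genes, and the list's median log2 change was -0.05. With the mutant, 6 were called, 1 higher and 5 lower, beside 3.54% of all genes, with a median of -0.12. Between mutant and wildtype none was called. In these fits, all without a replicate block, none of the 23 Gli regulators, such as the Gli-binding inhibitor Sufu, was called in any progenitor comparison. None of the 8 cilium genes was called either. At the shares of all genes given, lists of this size would hold few calls, so these are descriptions.

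Among receptors, Lrp2, an endocytic receptor that binds Sonic hedgehog, fell by 1.30 with the mutant (edgeR adjusted p = 0.0143) and had a log2 change of -0.29 with wildtype. The direct difference in Lrp2 between mutant and wildtype was -1.02 with edgeR adjusted p = 0.0948. Of the ligands, Shh was low throughout, at 4.03 ± 0.591 CPM in pMN, and was not called. Scube1, of a family of secreted proteins that help release ligand, rose with both, by 1.65 and 1.93 on the log2 scale, from 12.9 ± 1.85 CPM in pMN to 40.4 ± 3.06 and 49.1 ± 12.9 CPM.

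Among other targets, the pMN marker Olig2 fell from 254 ± 46.6 CPM to 5.92 ± 4.07 CPM with wildtype Nkx2.2 (log2 -5.35, edgeR adjusted p = 0.0011). It stood at 56.4 ± 43.4 CPM with the mutant, from libraries at 25.6 and 87.1 CPM (log2 -2.18, edgeR adjusted p = 0.0741). The Olig2 difference between mutant and wildtype was not called. Nkx2-9, a homeobox gene of the ventral neural tube, fell by 4.91 and 2.904 on the log2 scale. A pair of growth genes also fell with both: Mycn, a proliferation factor, by 1.60 and 1.73, and Ccnd2, a cyclin, by 1.40 and 1.07. Rab34, a GTPase needed for cilia, fell by 0.55 with wildtype Nkx2.2 and had a log2 change of -0.40 with the mutant (edgeR adjusted p = 0.129). Its difference between mutant and wildtype was not called (edgeR adjusted p = 0.662).

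**Figure D3:**
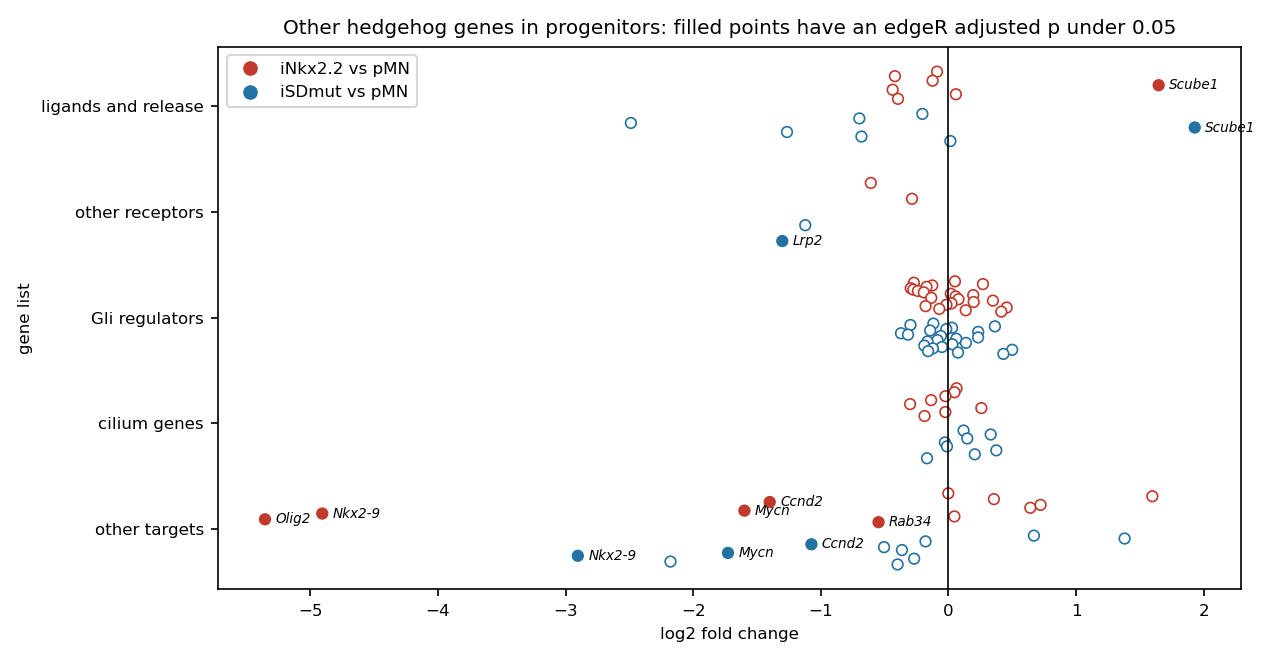
Log2 fold change (x axis) of 51 of the 52 other hedgehog genes tested, in 5 lists (y axis; vertical offsets within a list only separate points). Filled points have an edgeR adjusted p under 0.05 in the fit without a replicate block. Called genes are found among targets, receptors and ligand release, and none among the Gli regulators or cilium genes.

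Across the 8 progenitor libraries the levels of Gli1 moved most closely with those of Hhip (Pearson r = 0.978 on log2 CPM) and Gli2 (r = 0.973), and Ptch1 with Gli2 (r = 0.956). Cdon ran opposite to Gli1 (r = -0.602). These are descriptions over 8 libraries that share the 3 groups. Among 11379 genes, those ranked first or second in likeness to each member in this measure included Vcan and Dis3 for Gli1, Cers6 and Galnt7 for Gli2, Impdh2 and Nufip1 for Gli3, Ccdc88c and Ddc for Ptch1, Atp5g3 and Emd for Smo, Sap30 and Nkx2-9 for Hhip, Fem1a and Ctage5 for Boc, B3gnt7 for Cdon, and Polr2c and Taf5l for Gas1, with r between 0.971 and 0.993.

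At E15.5 all 9 genes were read in whole pancreas, and none was called between SD mutant and control. In CPM per kilobase of exon, the controls gave 73.4 ± 18.6 for Gas1 (SD, n = 3), 30.6 ± 3.97 for Smo, 20.1 ± 3.74 for Cdon and 12.4 ± 6.46 for Boc. The other 5 genes, Gli3, Gli2, Ptch1, Gli1 and Hhip, lay between 4.65 and 1.56 and each overlapped the next. None of the 9 was called by edgeR, 0.00534% of 18723 genes were, and 475 genes had an unadjusted p under 0.05, none of them a member. DESeq2 called 25 genes, and the 9 were not called in any of the 14 alternative analyses. In simulated data for this comparison, edgeR recovered 22% of log2 changes of 1, so that most changes of that size would be missed.

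Gli1 varied 10.01-fold between libraries, more than any other member. It stood at 3.05, 12.7 and 27.9 CPM in the controls and at 10.3, 28.0, 2.79 and 6.41 CPM in the mutants. Both groups thus held high and low libraries, and the log2 difference was -0.29 (SE 0.891, 95% interval -2.04 to 1.45). Gli2 stood at 19.2, 28.9 and 47.2 CPM against 35.8, 37.6, 18.7 and 15.6 CPM, and Boc at 28.8, 50.5 and 85.7 CPM against 54.2, 70.4, 28.1 and 28.9 CPM. In these 2 genes the same libraries were high as for Gli1.

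The other genes varied less. Gli3 stood at 23.7, 50.5 and 59.6 CPM in controls and at 38.9, 45.7, 20.7 and 21.6 CPM in mutants (log2 -0.49, SE 0.392). Cdon ranged from 98.4 to 179 CPM over the 7 libraries and Gas1 from 159 to 270 CPM. Ptch1 ranged from 50.5 to 79.2 CPM and had a log2 difference of 0.06 (95% interval -0.25 to 0.37). Smo ranged from 141 to 197 CPM (95% interval -0.33 to 0.19). Hhip varied least, 1.32-fold, from 13.7 to 18.1 CPM, with a log2 difference of 0.21 (95% interval -0.06 to 0.47).

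Markers of several tissues moved with these levels. The sum of 10 mesenchyme markers, all detected in every library, was 6362, 12250 and 14410 CPM in the controls and 10040, 14790, 5405 and 6697 CPM in the mutants. The libraries with the highest sums, control 3 and mutant 2, also had the highest Gli1. In 8 of the 9 genes, all but Hhip, the 3 libraries with the lowest sums (control 1 and mutants 3 and 4) were also the 3 with the lowest level of the gene, as they were for 16.3% of the 18723 genes tested. In those 3 libraries the 9 acinar markers were highest, at 29300, 36990 and 28890 CPM, against between 11790 and 24160 CPM in the other 4. The 6 beta-cell markers summed to between 288 and 812 CPM in the controls and between 53.8 and 104 CPM in the mutants, without overlap, and none of the 6 was called. Control 3 and mutant 2 held 4854 and 5575 CPM of 7 skeletal muscle markers, against between 10.8 and 66.4 CPM in the other 5. With the mesenchyme sum as a covariate none of the 9 genes was called, and without control 3 and mutant 2 together none was either. The part of these tissues in the spread of the 9 genes was not tested. Of 51 other hedgehog genes tested at this stage none was called, and their median log2 difference was -0.05.

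**Figure D4:**
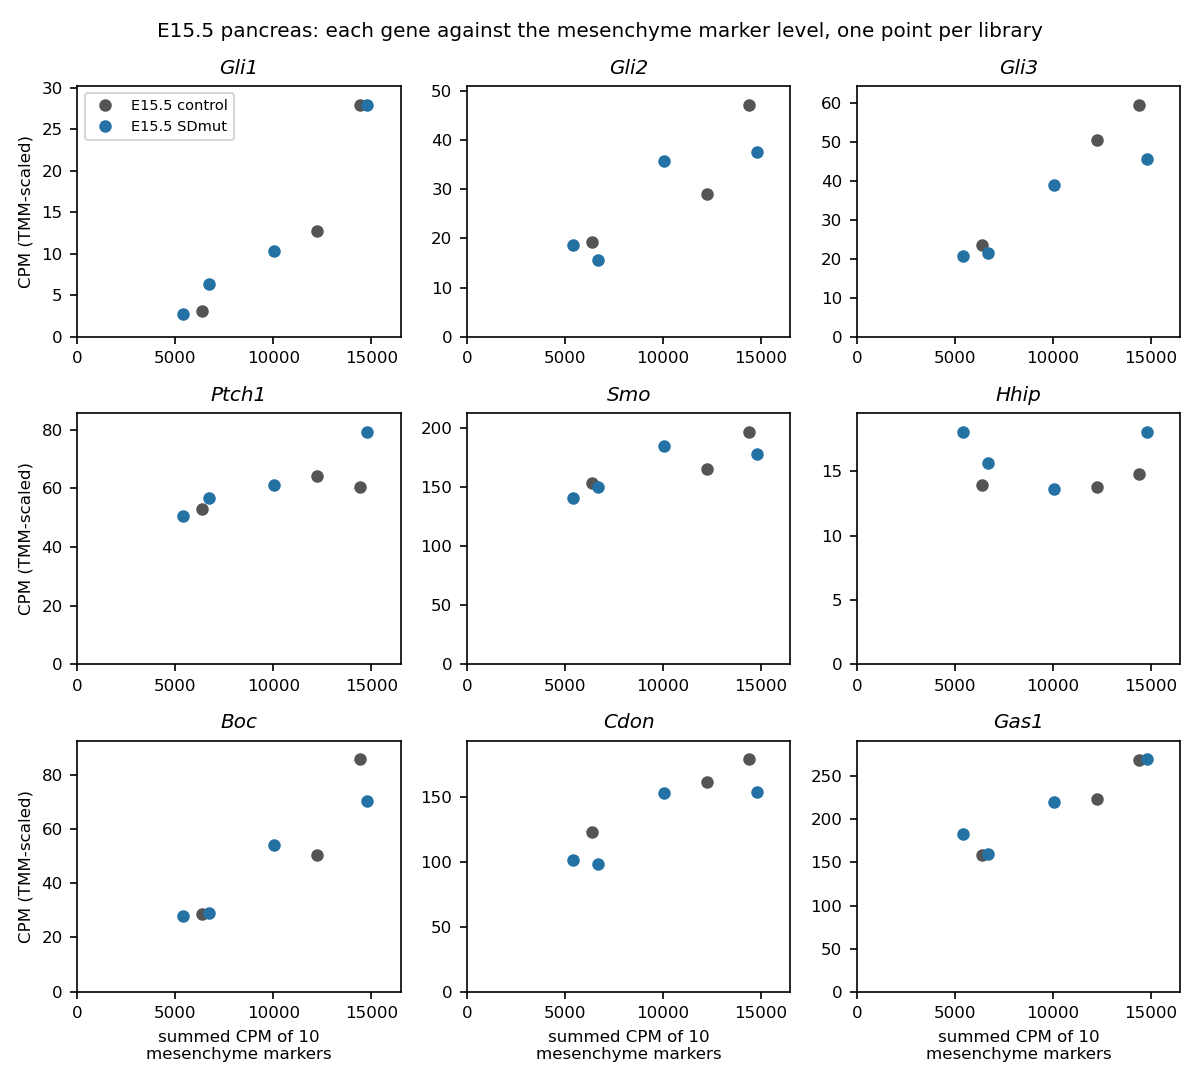
TMM-scaled CPM of each gene (y axis, linear, from 0) against the summed CPM of 10 mesenchyme markers (x axis) in 3 control and 4 SDmut E15.5 pancreas libraries, one point each. In every panel but Hhip the 3 libraries with the lowest marker sums are the 3 lowest, Hhip lies between 13.7 and 18.1 CPM, and the groups overlap in every panel.

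In adult islets the pathway was read mostly through Cdon and Ptch1. In 8-week controls, on the authors' FPKM scale, Cdon stood at 10.7 ± 0.325 (SD, n = 2), Ptch1 at 9.39 ± 0.158, Smo at 1.86 ± 0.185, Gas1 at 1.02 ± 0.192 and Boc at 0.549 ± 0.129. The 3 Gli factors were near the limit of detection, at 0.122 FPKM for Gli1, 0.0881 for Gli2 and 0.0556 for Gli3, and Hhip had no count in either control, where 3 counts would be 0.142 and 0.129 CPM. The 4-week controls gave Cdon and Ptch1 overlapping values of 8.51 ± 1.24 and 8.40 ± 0.868 FPKM, ahead of Smo at 2.47 ± 0.615.

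With the SD mutation in beta cells at 8 weeks, 6 of the 9 genes passed the filter on low counts and none was called, while 7.94% of the 15413 genes tested were. DESeq2 called 2 of them, Gli2 and Smo. Of all genes, edgeR called 1224, DESeq2 called 2041 and 3958 had an unadjusted p under 0.05. With total library size the split of all calls moved from 628 higher and 596 lower to 927 higher and 434 lower. Gli1, Gli3 and Hhip did not pass the filter, with 3 to 12, 4 to 10 and 0 to 3 counts per library.

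Gli2 was higher in all 3 mutant libraries. It had 9 and 13 counts in the controls, or 0.425 and 0.560 CPM, and 1.85, 10.1 and 10.7 CPM in betaSDmut replicates 1, 2 and 3. Replicates 2 and 3 stood apart from replicate 1, and all 3 lay above both controls. Only 1 of the 2 controls reached the filter's level of 0.416 CPM, which 2 libraries had to reach, so that Gli2 entered the test only through the betaSDmut libraries, where it was high. Its log2 difference of 3.92 (SE 0.921, edgeR adjusted p = 0.0642) is thus a description, and the DESeq2 call is no support for it. Without the filter the difference was 3.93, with an edgeR adjusted p of 0.119. In the authors' deposited table its coefficient was 3.55 and it was not called.

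Smo stood at 5.99 and 5.17 CPM in controls and at 8.95, 8.86 and 14.7 CPM in betaSDmut, again without overlap, a log2 difference of 0.96 (SE 0.269, 95% interval 0.43 to 1.49, edgeR adjusted p = 0.0899). DESeq2 gave adjusted p = 0.0175 for Smo. How many of all genes separate these few islet libraries without overlap was not counted, so the separation of Gli2, Smo and Cdon is a description. Ptch1 stood at 31.95 and 32.2 CPM against 44.4, 35.7 and 31.6 CPM, overlapping, a log2 difference of 0.22 (95% interval -0.08 to 0.51).

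Cdon stood at 61.6 and 59.1 CPM in controls and at 56.8, 47.8 and 50.4 CPM in betaSDmut, lower in all 3, with a log2 difference of -0.23 (SE 0.0912, edgeR adjusted p = 0.191). Without betaSDmut replicate 1 it was called, at adjusted p = 0.0342. Gas1 stood at 2.83 and 2.07 CPM against 1.44, 2.10 and 1.34 CPM, and Boc at 1.65 and 2.41 CPM against 2.42, 2.87 and 1.957 CPM, both overlapping. Markers of non-beta cells also differed: the mesenchyme sum was 211 and 276 CPM in controls and 169, 152 and 107 CPM in betaSDmut, with Nkx3-2 at 0 in every library. None of the 7 mesenchyme markers tested was called. The immune marker sum was 24.6 and 26.9 CPM in controls and 14.4, 14.6 and 73.3 CPM in betaSDmut, and the acinar sum was 12150 and 7308 CPM against 873, 1814 and 9854 CPM. The 6 beta-cell markers summed to 230400 and 237200 CPM in controls and to between 196800 and 211900 CPM in betaSDmut, and the 5 Schwann cell markers to 21.1 and 24.6 CPM against between 11.9 and 14.4 CPM. The 6 motor neuron markers summed to 119.6 and 121.5 CPM against between 221 and 245 CPM, with 2 of 3 tested called higher. The part of these cells in the Gli2, Smo and Cdon values was not tested.

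**Figure D5:**
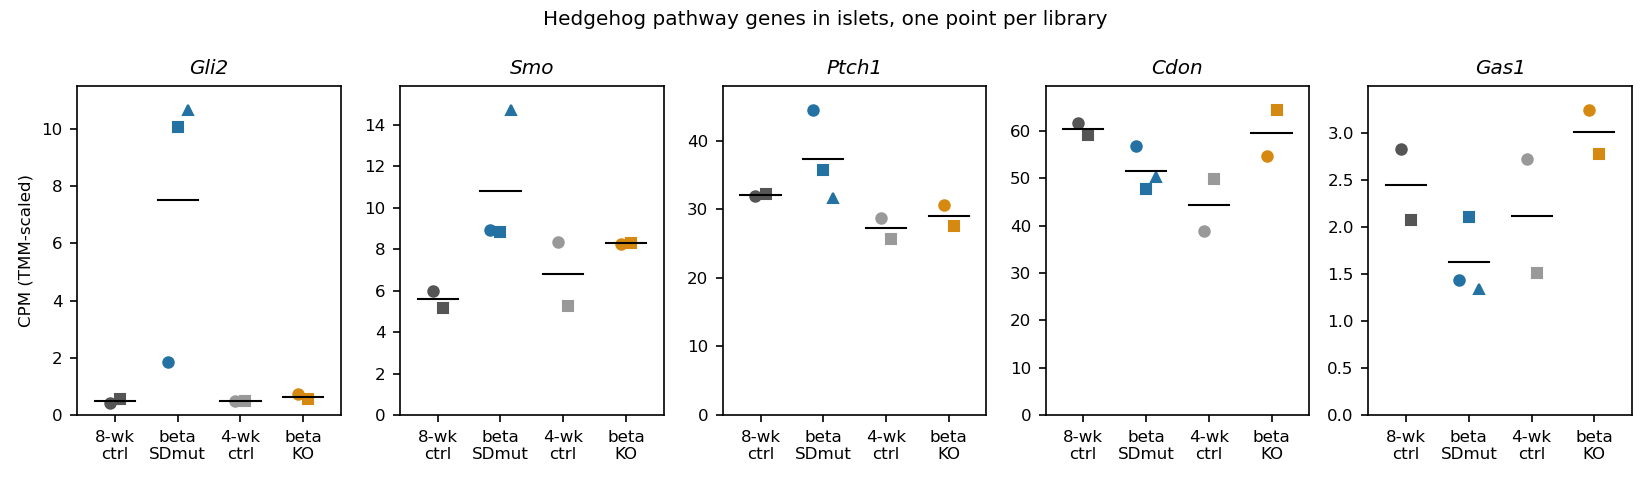
TMM-scaled CPM (y axis, linear, from 0, scaled separately for each gene) of Gli2, Smo, Ptch1, Cdon and Gas1 in the islet libraries of 4 groups (x axis), one point per library with the group mean as a line. Gli2 reaches 10.1 and 10.7 CPM in 2 betaSDmut libraries and 1.85 CPM in the third, and lies between 0.425 and 0.720 CPM in the 6 libraries of the other groups.

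The sample records give genomic DNA as the molecule of all 4 libraries at 4 weeks, although their table holds counts per gene. That leaves a doubt about what these values measure. In the libraries labelled betaKO, 5 of the 9 genes passed the filter and none was called, beside 1.56% of the 14942 genes tested (233 by edgeR, with 2275 at an unadjusted p under 0.05 and 770 called by DESeq2). Cdon stood at 38.9 and 49.9 CPM in controls and at 54.8 and 64.4 CPM in betaKO, without overlap, a log2 difference of 0.43 (SE 0.155, edgeR adjusted p = 0.285). Its sign was opposite to that in the 8-week mutants, a contrast between ages and alleles that was not tested. On the authors' FPKM scale the Cdon values overlapped, at 7.64 and 9.39 in controls and 8.62 and 11.3 in betaKO. Ptch1 at 28.7 and 25.7 CPM against 30.6 and 27.6 CPM had a log2 difference of 0.10 (95% interval -0.14 to 0.33).

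Smo stood at 8.37 and 5.26 CPM in the 4-week controls and at 8.28 and 8.32 CPM in betaKO (log2 0.27, SE 0.265). In TMM-scaled CPM, Boc and Gas1 were each higher in both betaKO libraries than in both controls, by 0.15 (SE 0.263) and 0.49 (SE 0.399) on the log2 scale. On the authors' FPKM scale Gas1 was again higher in both, but Boc was lower, at 0.945 and 1.041 against 1.045 and 1.085 in controls. How many of all genes separate these groups in this way was not counted. Gli2 had 16 and 8 counts in the controls and 12 and 7 in betaKO, or 0.483, 0.484, 0.720 and 0.554 CPM, so the level seen in 2 of the betaSDmut libraries was not met in any library of this age. The mesenchyme sum was 231 and 211 CPM in controls and 357 and 440 CPM in betaKO, with 2 of 7 tested markers called higher. Other lists moved too. The 6 markers of other endocrine cells summed to 35490 and 29780 CPM in controls and to 77130 and 62230 CPM in betaKO, with 2 called higher, and the 9 acinar markers to 10300 and 5493 CPM against 37470 and 13350 CPM. The 6 beta-cell markers summed to 210500 and 214100 CPM against 179100 and 167100 CPM, with 1 called lower, and the 5 Schwann cell markers to 11.5 and 9.85 CPM against 18.9 and 20.8 CPM. The part of these cells in the co-receptor values was not tested.

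Among the other hedgehog genes in islets, 3 of 44 tested were called at 8 weeks, all lower, in a comparison where 7.94% of all genes were called. They were the kinase Ulk3 (log2 -0.46, edgeR adjusted p = 0.0385), the ubiquitin ligase Mgrn1 (log2 -0.38, edgeR adjusted p = 0.0340) and Nkx6-1, a homeobox factor of neural progenitors that is also central to beta-cell identity (log2 -0.91, edgeR adjusted p = 0.0174). At 4 weeks none of 41 was called. The ligand genes Shh, Ihh and Dhh had at most 5 counts each in any 8-week library. At 4 weeks Shh had at most 2 counts and Dhh at most 7. Ihh had 1 and 7 counts in the 4-week controls and 2 and 37 in betaKO, so that 1 betaKO library stood apart at 2.93 CPM.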

How the data were processed

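RNA-seq was analysed in 24 libraries and Nkx2.2 ChIP-seq in 2. Counts per gene were deposited by the authors without normalization, and FPKM values were deposited beside the progenitor and islet counts. Per the submitters' processing notes, STAR, Cufflinks, DESeq2, edgeR 3.20.9, limma 3.34.9 and bedtools 2.17.0 were used with build mm10; their roles, the counting rule and the use of strand are not given in the sources used here. The authors' tables give model coefficients as log2 values and ChIP sites as log2 CPM, whose base is taken to be 2.

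Counts were fitted with edgeR 4.0.16 (TMM, its default filter on low counts, robust quasi-likelihood test, Benjamini-Hochberg over all genes tested, threshold 0.05): the 8 progenitor libraries in 1 model, and each tissue and age alone. SE is the log2 change over the root of F, and 95% intervals are normal ones. With so few libraries these intervals are narrower than the test's own distribution would give. Libraries were grouped by the labels, and no pair within a group agreed within sampling noise. The code was tested on simulated data with 200 changed genes per comparison. Of the calls there, 9.7% were false for wildtype against pMN, 12.6% at 8 weeks and 21.1% at 4 weeks. In the other comparisons 6.7% to 7.6% were false, so that all shares exceeded the threshold of 0.05. Log2 changes of 1 were recovered in 22% of cases at E15.5 and in 54.4% to 64.4% in the other comparisons. Same-numbered pMN and iNkx2.2 libraries deviated together from their group means (r = 0.714, 0.749 and 0.757 for 3 pairs), so those numbers pair the libraries. The p-values, SEs and intervals given leave this pairing out, except where a replicate block is named.

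Sites and exon lengths were set against GENCODE vM21 (GRCm38), and promoters came from RefSeq (GRCm38.p6). All 9 members are named, with called genes of the other hedgehog lists, Nkx2-2 and the 2 genes most like each member, except that 1 listed gene, which the list counts include, 1 of the most like genes and 1 of the sites near members are not reported here. The members and lists were chosen with earlier results of these data known. Alternatives were DESeq2 1.42.0, total library size, no filter, 2-group fits, lane 2 alone, blocks and leaving out each library; the mesenchyme covariate was chosen after seeing the data. The ChIP input and the E15.5 normalized counts were not used here.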

Additional observations from a re-analysis of the deposited data

How the results depend on the processing

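With wildtype Nkx2.2 against pMN, Gli1, Gli2, Gli3, Ptch1 and Hhip were called lower in each of the 13 alternatives run and Gas1 in 12. With the SD mutant, Gli1 and Gli2 were called lower in each of 12. Leaving out 1 library gave 5 to 6 of the 9 genes called for wildtype against pMN, 3 to 5 for mutant against pMN, 0 to 2 for mutant against wildtype (2 without iSDmut replicate 2), 0 to 0 at E15.5, 0 to 2 at 8 weeks (2 without betaSDmut replicate 1) and 0 to 0 at 4 weeks. Over all genes the same step gave 412 to 1299, 171 to 349, 2 to 467, 0 to 2, 37 to 2765 and 4 to 478 calls in that order, against 1486, 554, 44, 1, 1224 and 233; the lowest counts came without iNkx2.2 replicate 1, pMN replicate 1, iNkx2.2 replicate 2, E15.5 control 2 among others, 8-week control 2 and 4-week control 1, and the highest without pMN replicate 3, iSDmut replicate 2, iSDmut replicate 2, E15.5 control 3, betaSDmut replicate 1 and betaKO replicate 1. Where this leaves a group with 1 library, and in lane 2 for iSDmut, the lone library is assumed to vary like the others.

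DESeq2 called 2271 genes for wildtype against pMN, 1382 for mutant against pMN, 473 for mutant against wildtype, 25 at E15.5, 2041 at 8 weeks and 770 at 4 weeks, and it called 2 members between mutant and wildtype and 2 at 8 weeks. Fits of only the 2 groups compared called 295 genes for mutant against pMN and 13 for mutant against wildtype. Lane 2 alone called 151 and 243, with 2 members and 1 member. Without the count filter, 145 genes and 1 member (Gli2) were called between mutant and wildtype and 372 genes at 4 weeks. Total library size gave 2 calls at E15.5 and 127 at 4 weeks, and a split of 342 higher and 164 lower for mutant against pMN (297 and 257 with TMM), 15 and 15 for mutant against wildtype (25 and 19) and 1 and 1 at E15.5. The mesenchyme covariate gave 12 calls at E15.5. Among the strongest 10% of ChIP sites, 0 members had one.

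With the replicate number as a block, 4629 genes were called for wildtype against pMN, and apart from Cdon no member's call changed there. The iSDmut numbers form 2 pairs only, with correlations of 0.417 and 0.05 to pMN and 0.385 and 0.143 to iNkx2.2, too few to settle a pairing by themselves; that block gave 2626 calls against pMN, and 528 calls with 4 members (Gli1, Gli2, Gli3 and Cdon) against wildtype. In islets the numbers showed no pairing at 8 weeks (correlations -0.042 and 0.008), and the replicate block gave 757 calls. The number in the E15.5 titles as a block gave 0.

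Values that were not called changed sign as follows; the cause was not tested. For mutant against pMN, Cdon was 0.0295 with total library size and -0.3896 to 0.2233 over left-out libraries. For mutant against wildtype, Boc was -0.0252 with total library size, -0.0178 without the filter, -0.0075 in the 2-group fit and -0.0882 to 0.093 over left-out libraries; Ptch1 was -0.0716 to 0.2365 over these; Smo was 0.0125 with the replicate block, 0.0538 in lane 2 and -0.0637 to 0.0475 over left-out libraries. At E15.5 the mesenchyme covariate gave 0.0431 for Boc, 0.09 for Gas1, 0.3512 for Gli1 and 0.0197 for Gli2, the title block gave 0.0547 for Gas1 and 0.0193 for Gli1, and leaving out control 3 and mutant 2 together gave -0.0652 for Ptch1. Over left-out E15.5 libraries the ranges were -0.5834 to 0.1979 for Boc, -0.2419 to 0.1209 for Gas1, -1.1611 to 0.5905 for Gli1, -0.498 to 0.1627 for Gli2, -0.0778 to 0.1501 for Ptch1 and -0.1471 to 0.0366 for Smo. At 4 weeks Smo was -0.0114 to 0.661. In islets, few counts limit Gli1, Gli3 and Hhip, whose differences were not detectable at this depth.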
